A study of Mus musculus with 12 samples.

Results

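Inflammasomes and inflammatory caspases were described through 7 genes chosen by name: the sensors Nlrp3, Nlrc4 and Aim2, the adaptor Pycard, the proteases Casp1 and Casp4, and the pore-forming effector Gsdmd. A probe set of the array table that carried 1 gene symbol was taken for a member when that symbol was on the list. This found 8 probe sets for 6 of the 7 genes, out of 18193 genes in all, and Nlrc4 was not analysed here. The rule uses gene symbols and no measured value, but the 7 genes were chosen with earlier results of these data known.

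RNA came from CD11c+ cells of mouse lung, a mixture of alveolar macrophages and dendritic cells, taken with magnetic beads from lungs digested with collagenase. Per the labels, purity was above 90% and lymphocytes made up under 5%. All mice had received Pneumocystis, a fungus that infects the lung, into the trachea, and no uninfected group was analysed here. The study asked if these cells start to signal through type I interferon after infection, and if that matters for the inflammation as the fungus is cleared.

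The 4 groups were wildtype mice at day 7 after infection, IFNAR-/- mice at day 7, wildtype mice at day 14 and IFNAR-/- mice at day 14, with 3 mice and 3 arrays in each. IFNAR-/- mice lack a working receptor for type I interferons. The labels give no strain, sex or age, so whether both genotypes share a genetic background is not known here. Ifnar1, which codes for a chain of that receptor, was lower without IFNAR by 0.98 ± 0.35 (SE) on the log2 scale at day 7 and by 0.19 ± 0.35 at day 14 as the mean of 2 probe sets, with limma adjusted p of 0.208 and 0.821. Its IFNAR-/- arrays at day 14 stood at 0.10, -1.01 and 0.39 and its wildtype arrays at -0.15, 0.07 and 0.11. Where these probe sets lie against the altered part of the gene is not given, so they do not check the labels.

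An inflammasome is a protein platform that forms in the cytosol when a sensor meets a microbial product or a sign of damage. Sensors such as NLRP3 and AIM2 recruit the adaptor ASC, the product of Pycard, which gathers pro-caspase-1 until it cleaves itself. Caspase-1 then matures the cytokines IL-1β and IL-18 and cuts gasdermin D, whose fragment forms pores in the plasma membrane, while caspase-11, the product of mouse Casp4, senses bacterial lipopolysaccharide in the cytosol and cuts gasdermin D directly. RNA of several of these genes is known to rise with interferon or NF-kB signalling, which is called priming. Array RNA does not show whether an inflammasome formed.

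Casp1 and Casp4 are neighbours on chromosome 9, in the order Gria4, Casp1, Casp4, Casp12, Pdgfd. Aim2 lies on chromosome 1 beside Ifi206, Ifi214 and Ifi213, members of the same family of interferon-inducible genes. Pycard on chromosome 7 is followed by Trim72, Itgam and Itgax, and Itgax codes for CD11c itself. Nlrp3 is on chromosome 11 and Gsdmd on chromosome 15.

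Promoters are shown for Casp1 and Casp4, the members that passed the test between genotypes, and for Nlrp3, the member with the widest spread within groups. They are RefSeq sequences of GRCm38.p6, from 250 bases before to 50 bases after an annotated start, printed 5′ to 3′ on the gene's strand. The table of promoters matched 6 of the 7 members with 8 promoters and held none for Gsdmd, whose promoter was therefore not searched. Capitals mark matches to the NF-kB consensus decamer on either strand.
Casp1 (chr9:5298267-5298566, plus strand): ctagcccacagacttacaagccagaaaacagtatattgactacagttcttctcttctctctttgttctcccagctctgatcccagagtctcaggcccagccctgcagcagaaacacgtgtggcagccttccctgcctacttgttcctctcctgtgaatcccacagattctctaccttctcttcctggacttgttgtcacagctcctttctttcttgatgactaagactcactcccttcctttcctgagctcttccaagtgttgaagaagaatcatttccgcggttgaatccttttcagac
Casp4 (chr9:5308599-5308898, plus strand): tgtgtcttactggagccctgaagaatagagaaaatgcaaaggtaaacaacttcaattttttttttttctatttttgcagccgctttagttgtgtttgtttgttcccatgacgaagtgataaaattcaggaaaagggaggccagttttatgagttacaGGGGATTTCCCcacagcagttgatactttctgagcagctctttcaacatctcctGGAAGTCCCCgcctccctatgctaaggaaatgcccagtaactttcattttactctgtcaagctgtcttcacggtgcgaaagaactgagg
Nlrp3 (chr11:59541319-59541618, plus strand): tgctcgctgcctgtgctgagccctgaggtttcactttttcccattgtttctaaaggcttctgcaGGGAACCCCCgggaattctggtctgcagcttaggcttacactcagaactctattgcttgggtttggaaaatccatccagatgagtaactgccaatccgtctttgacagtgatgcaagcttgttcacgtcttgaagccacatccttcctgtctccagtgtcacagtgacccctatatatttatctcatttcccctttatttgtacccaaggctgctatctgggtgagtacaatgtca

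These motifs were searched on both strands: the core of the interferon-stimulated response element, GAAANNGAA, the gamma-activated site, TTCNNNGAA, and the NF-kB consensus decamer. No promoter of a member held either of the first pair of motifs, which occur in 8.56% and 8.30% of 32851 promoters of the same 300 bases. The NF-kB decamer occurs in 8.46% of them. In the Casp4 promoter it matched at 3 positions that begin 93, 92 and 39 bases before the start, and the first pair overlap and form a single stretch of capitals. The Nlrp3 promoter shown held 1 match, 186 bases before the start, and the other Nlrp3 promoter in the table held none. The Casp1 promoter, like those of Aim2 and Pycard, held none. A match is a run of letters and not a measured binding site.

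Each value below is a log2 ratio: a gene's signal on 1 array against about the median of that gene on all 12. A value of 0 is therefore the middle of that gene's arrays, and levels cannot be set against another gene's. Differences come from 1 limma fit of all 12 arrays, with the standard error (SE) and p-values adjusted by Benjamini-Hochberg over all 18193 genes. A gene passed the test when its adjusted p was under 0.05. The text gives mice 1, 2 and 3 of a group in that order, and mice of different groups that carry the same number are different animals. In RNA from a mixture of cells, fewer cells of a type and less RNA per cell cannot be told apart.

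Some arrays and some measures of the RNA moved with the groups. IFNAR-/- day 14 mouse 2 had the widest spread over all genes, with an interquartile range of 0.556 against 0.169 to 0.342 on the other arrays, and IFNAR-/- day 7 mouse 3 had high epithelial, endothelial and fibroblast markers (list medians of 2.39, 2.36 and 1.82). Wildtype day 7 mouse 1 was as high in epithelial markers, at 2.42, and had an endothelial median of 1.73. The 5′ over 3′ ratio (log2) of the actin and Gapdh controls was -0.912 to -0.184 in the wildtype day 14 arrays. It was 0.064 to 0.163 in the IFNAR-/- day 14 arrays, and IFNAR-/- day 7 mouse 2 stood at -0.520. The poly-A spike-in signal (log2) was 0.740 to 1.906 in wildtype day 7 and -3.072 to -1.706 in wildtype day 14. It was -3.182 to 1.249 in IFNAR-/- day 7 and -1.542 to 0.148 in IFNAR-/- day 14. Dendritic cell markers were lower without IFNAR at day 7. Their list medians were 0.37, 0.42 and 0.04 in wildtype and -0.47, -0.49 and -0.36 in IFNAR-/- mice. Of 9 markers 6 fell, where 2.64% of all genes passed limma's test. T cell markers at day 7 had medians of 0.42, 0.29 and -0.06 in wildtype and -0.66, -0.33 and -0.34 in IFNAR-/- mice; all 9 differed downwards, with a median of -0.64, and 0 passed. All 7 natural killer cell markers differed downwards too, with a median of -0.42, and 1, Klrk1, fell. Alveolar macrophage markers at day 7 had medians of 0.25, -0.09 and 0.78 in wildtype and 1.20, 0.94 and 1.13 in IFNAR-/- mice, with 0 of 9 past the test. The part of any of these in the results was not tested, except through the fits named beside them. Ratios hold no level, so no marker can be called absent.

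At day 7, 2 of the 6 measured members, Casp1 and Casp4, fell without IFNAR, and none rose. Both are proteases, and the sensors, the adaptor and the pore-former did not pass. The sensor Aim2 differed by -0.80 ± 0.28 (SE), beside -0.74 ± 0.15 for Casp1. Whether the proteases differ from the other members was not tested. Over all genes, 2.64% passed limma's test at day 7, but the members were chosen with earlier results of these data known. The median difference of the members was -0.53, with 5 of 6 below 0, against 0.00 over all genes. Arrays of the genotypes did not overlap for 4 of the 6 members (Casp1, Casp4 and Aim2 lower, Nlrp3 higher), against 24.0% of all genes.

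At day 14 only Casp4 of the 6 passed, and it fell. The share over all genes was 5.04%, and the members' median was -0.05 against 0.00 over all genes. Casp4 and Gsdmd did not overlap between genotypes, where 23.4% of all genes did not.

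**Figure D1:**
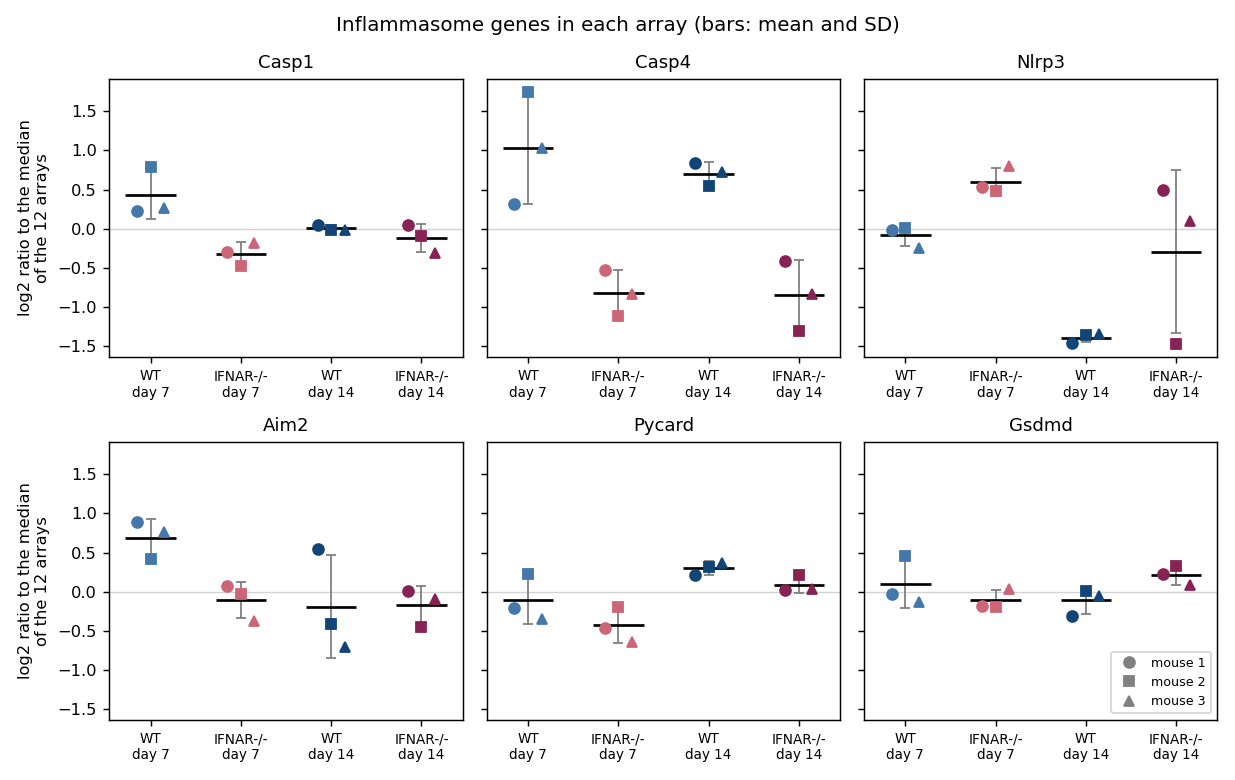
Log2 ratio of each measured member to its median over the 12 arrays, by genotype and day; points are single mice, the bar is the mean and the whisker the SD of 3 mice. All 6 IFNAR-/- values of Casp4 lie below all 6 wildtype values, and Nlrp3 of IFNAR-/- day 14 mouse 2 lies at -1.47 beside the wildtype arrays of that day.

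Casp4 codes for caspase-11, the cytosolic receptor and protease for lipopolysaccharide. Its wildtype day 7 arrays stood at 0.32, 1.75 and 1.03 and its IFNAR-/- day 7 arrays at -0.53, -1.11 and -0.83. At day 14 the values were 0.84, 0.55 and 0.72 in wildtype and -0.41, -1.31 and -0.83 in IFNAR-/- mice. The labels give no strain, and some inbred mouse strains are known to carry a defective Casp4 allele, so for this gene the loss of IFNAR and a difference in genetic background cannot be told apart here. The genotypes did not overlap on either day or across days: the highest of 6 IFNAR-/- arrays was -0.41 and the lowest of 6 wildtype arrays was 0.32. Such an order, with every IFNAR-/- array lower, was found for 0.781% of all genes.

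The Casp4 group means at day 7 were 1.03 ± 0.71 (SD, n = 3) in wildtype and -0.82 ± 0.29 in IFNAR-/- cells, a difference of -1.86 ± 0.32 (SE) and 3.62-fold, with limma adjusted p = 0.0125. At day 14 they were 0.70 ± 0.15 and -0.85 ± 0.45, a difference of -1.55 ± 0.32 and 2.94-fold, with limma adjusted p = 0.0223. The genotype difference itself changed between the days by 0.30 ± 0.45 (limma adjusted p = 0.792). Between day 7 and day 14 it differed by -0.33 ± 0.32 in wildtype and -0.03 ± 0.32 in IFNAR-/- cells, with limma adjusted p of 0.619 and 0.961. Casp4 was thus the member with a genotype difference past the threshold on both days, and neither change over time passed.

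The day 7 difference of Casp4 kept its sign when each array was left out in turn and ran from -2.21 to -1.50. The larger value came without wildtype day 7 mouse 1 (limma adjusted p = 0.00442), the array with the lowest wildtype Casp4. That array and IFNAR-/- day 7 mouse 3 had high epithelial markers (list medians of 2.42 and 2.39), whose part in Casp4 was not tested. The difference missed the threshold in 1 of these 12 fits, without IFNAR-/- mouse 2 of day 7 (limma adjusted p = 0.0547). It also missed it with the poly-A spike-in signal as a covariate (-1.69, limma adjusted p = 0.0541) and in a fit of only the 6 day 7 arrays (limma adjusted p = 0.0628). At day 14 the difference ran from -1.77 to -1.32 and missed the threshold without any 1 of wildtype mice 1, 2 and 3 and IFNAR-/- mice 2 and 3 of that day, with limma adjusted p of 0.0588, 0.0555, 0.0692, 0.0570 and 0.0568. Fitted with the 5′ over 3′ ratio as a covariate, the day 14 difference was -1.79 ± 0.44 (limma adjusted p = 0.144), and without both arrays that stand apart it was -1.32 (limma adjusted p = 0.0630). Of 9 dendritic cell markers 6 fell without IFNAR at day 7, where 2.64% of all genes passed. At day 14 none of them fell and 2 rose, where 5.04% of all genes passed. The part of these cells in the Casp4 difference was not tested.

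Casp1 codes for caspase-1, which matures IL-1β and IL-18. It stood at 0.23, 0.79 and 0.26 in wildtype and at -0.29, -0.47 and -0.18 in IFNAR-/- cells at day 7, so that all wildtype arrays were higher. Day 14 values lay close together, with 0.05, -0.01 and -0.02 in wildtype and 0.05, -0.09 and -0.31 in IFNAR-/- cells, and overlapped.

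The means of Casp1 at day 7 were 0.43 ± 0.31 (SD, n = 3) and -0.32 ± 0.15, a difference of -0.74 ± 0.15 (SE) and 1.67-fold, with limma adjusted p = 0.0283. At day 14 they were 0.01 ± 0.04 and -0.12 ± 0.18, and the difference of -0.12 ± 0.15 did not pass (limma adjusted p = 0.710). The change of the genotype difference, 0.62 ± 0.22, did not pass (limma adjusted p = 0.156), so a difference between the days was not shown. From day 7 to day 14 Casp1 differed by -0.42 ± 0.15 in wildtype, with no overlap, and by 0.20 ± 0.15 in IFNAR-/- cells, with limma adjusted p of 0.125 and 0.401.

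The day 7 call of Casp1 rested on small margins. It held in 9 of 12 fits that left out 1 array, with a range of -0.84 to -0.57, and was lost without IFNAR-/- mouse 1, IFNAR-/- mouse 2 or wildtype mouse 2 of day 7 (limma adjusted p of 0.0883, 0.106 and 0.0809). Fitted with the 5′ over 3′ ratio as a covariate, the difference was -0.69 (limma adjusted p = 0.0685), and with the poly-A spike-in signal it was -0.80 (limma adjusted p = 0.0640). Casp12, the next gene after Casp4 and a caspase of the same cluster, was looked at for its position and differed by 0.10 ± 0.33 at day 7 and -0.00 ± 0.33 at day 14 (limma adjusted p of 0.967 and 0.997).

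**Figure D2:**
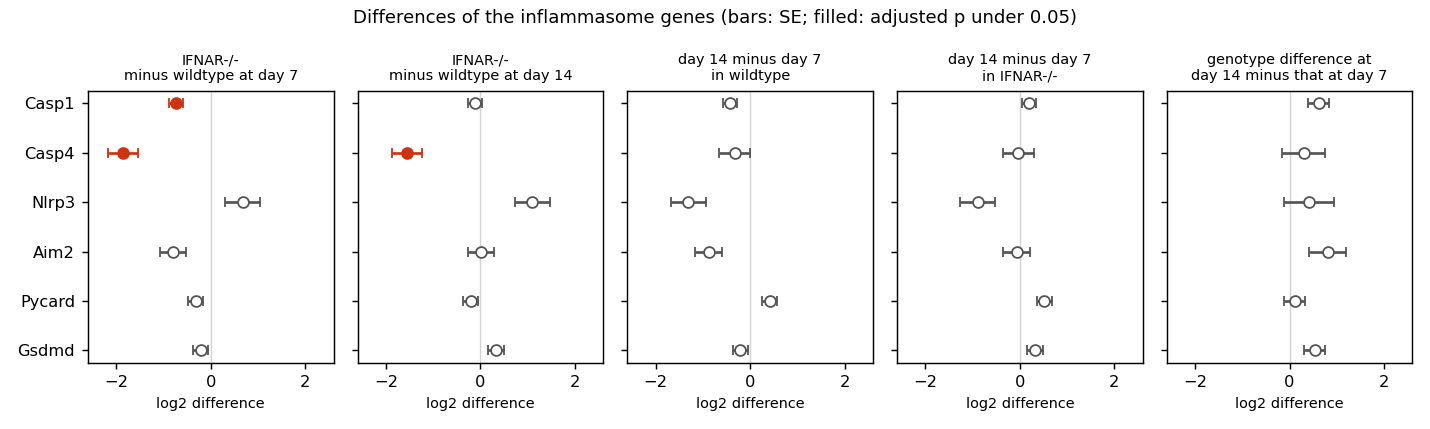
Log2 difference of each measured member in the 5 comparisons, with the SE of the limma fit; filled points have an adjusted p under 0.05. The filled points are Casp1 and Casp4 at day 7 (-0.74 and -1.86) and Casp4 at day 14 (-1.55).

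Nlrp3, the sensor of potassium efflux and membrane damage, was the member with the widest spread within groups (residual SD 0.532, above that of 96.0% of genes). That spread came mostly from IFNAR-/- day 14, with an SD of 1.04. The SD was 0.14 in wildtype day 7, 0.18 in IFNAR-/- day 7 and 0.06 in wildtype day 14. At day 7 it stood at -0.01, 0.01 and -0.25 in wildtype and 0.53, 0.48 and 0.80 in IFNAR-/- cells, with every IFNAR-/- array higher. At day 14 it stood at -1.46, -1.36 and -1.34 in wildtype and 0.50, -1.47 and 0.10 in IFNAR-/- cells. The 3 wildtype arrays of day 14 were low and close together, and 1 IFNAR-/- array, mouse 2, was as low as they were while the other 2 were far above.

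Between genotypes Nlrp3 differed by 0.68 ± 0.37 (SE) at day 7 and 1.10 ± 0.37 at day 14, and neither passed (limma adjusted p of 0.507 and 0.120). From day 7 to day 14 it differed by -1.31 ± 0.37 in wildtype, with no overlap, and by -0.89 ± 0.37 in IFNAR-/- cells, with limma adjusted p of 0.0576 and 0.145. Leaving out IFNAR-/- day 14 mouse 2 moved the differences that use it and narrowed the SE of all. Without it, the day 14 genotype difference was 1.69 ± 0.15 (limma adjusted p = 0.000661), the time change in IFNAR-/- cells -0.30 ± 0.15 (0.255) and the change of the genotype difference 1.00 ± 0.20 (0.0300). The day 7 difference kept its size at 0.68 ± 0.13 (limma adjusted p = 0.0196), as did the wildtype time change at -1.31 ± 0.13 (0.000597). That array was also the one with the widest spread over all genes, so Nlrp3 is given with and without it. The day 14 difference passed in 1 of 12 fits that left out 1 array, the one without this array, and in 2 of 10 other alternatives. With quantile normalization it was 1.08 ± 0.32 and did not pass (limma adjusted p = 0.0827).

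Leaving out both arrays that stand apart gave 1.69 ± 0.13 for Nlrp3 at day 14 (limma adjusted p = 0.000636) and 0.58 at day 7 (limma adjusted p = 0.0509). Without IFNAR-/- day 14 mouse 1 the time change in IFNAR-/- cells was -1.28 ± 0.34 (limma adjusted p = 0.0346), and that in wildtype cells passed too (limma adjusted p = 0.0307). The 3 wildtype day 14 arrays, low in Nlrp3, had 5′ over 3′ ratios below 0. IFNAR-/- day 7 mouse 2 had a ratio of -0.520 and Nlrp3 at 0.48. At day 14 the ratio ran with the genotype, so their parts in Nlrp3 cannot be told apart. With that ratio as a covariate the day 14 difference was 0.96 ± 0.52 and the wildtype time change -1.17 ± 0.52 (limma adjusted p of 0.552 and 0.376).

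Aim2 codes for a sensor of double-stranded DNA in the cytosol. At day 7 it stood at 0.89, 0.42 and 0.76 in wildtype and 0.07, -0.03 and -0.37 in IFNAR-/- cells, again with no overlap. At day 14 wildtype mouse 1, at 0.55, lay apart from mice 2 and 3, at -0.41 and -0.70, and the IFNAR-/- arrays were 0.01, -0.45 and -0.09.

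Aim2 differed between genotypes by -0.80 ± 0.28 (SE) at day 7 and 0.01 ± 0.28 at day 14 (limma adjusted p of 0.188 and 0.987). In wildtype cells the time change was -0.88 ± 0.28 (limma adjusted p = 0.0817), and in IFNAR-/- cells -0.07 ± 0.28 (limma adjusted p = 0.892). Without wildtype day 14 mouse 1 the wildtype change was -1.25 ± 0.20 (limma adjusted p = 0.00879) and the day 7 genotype difference passed as well (limma adjusted p = 0.0473). No change of the genotype difference was called for Aim2, at 0.81 ± 0.39 (limma adjusted p = 0.307).

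Pycard codes for ASC, the adaptor that links sensors to caspase-1. As the mean of its 3 probe sets it stood at -0.21, 0.22 and -0.35 in wildtype and -0.46, -0.20 and -0.64 in IFNAR-/- cells at day 7. At day 14 the values were 0.21, 0.32 and 0.37 in wildtype and 0.02, 0.21 and 0.03 in IFNAR-/- cells. All IFNAR-/- arrays were higher at day 14 than at day 7, while the genotypes overlapped on both days.

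Pycard differed by -0.32 ± 0.16 (SE) between genotypes at day 7 and by -0.21 ± 0.16 at day 14 (limma adjusted p of 0.420 and 0.491). From day 7 to day 14 it differed by 0.41 ± 0.16 in wildtype and 0.52 ± 0.16 in IFNAR-/- cells (limma adjusted p of 0.141 and 0.0516). The probe sets did not give the same picture. Probe set 1417346_at stood at -0.81, -0.70 and -0.96 in IFNAR-/- cells at day 7 and at 0.05, 0.26 and -0.07 at day 14, and it rose by 0.90 ± 0.20 with limma adjusted p = 0.0151 over all probe sets. In the same comparison 1417347_at differed by 0.36 and 1446926_at by 0.31, with limma adjusted p of 0.316 and 0.277.

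At day 7 the genotype difference was -0.73 ± 0.20 for 1417346_at (limma adjusted p = 0.0993) and 0.05 for 1446926_at (limma adjusted p = 0.981). The third probe set, 1417347_at, had the larger genotype difference at day 14, -0.52 ± 0.22 (limma adjusted p = 0.194), with 0.51, 0.34 and 0.86 in wildtype and -0.12, 0.35 and -0.07 in IFNAR-/- mice. Which part of the transcript each probe set reads is not given in the sources used here.

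**Figure D3:**
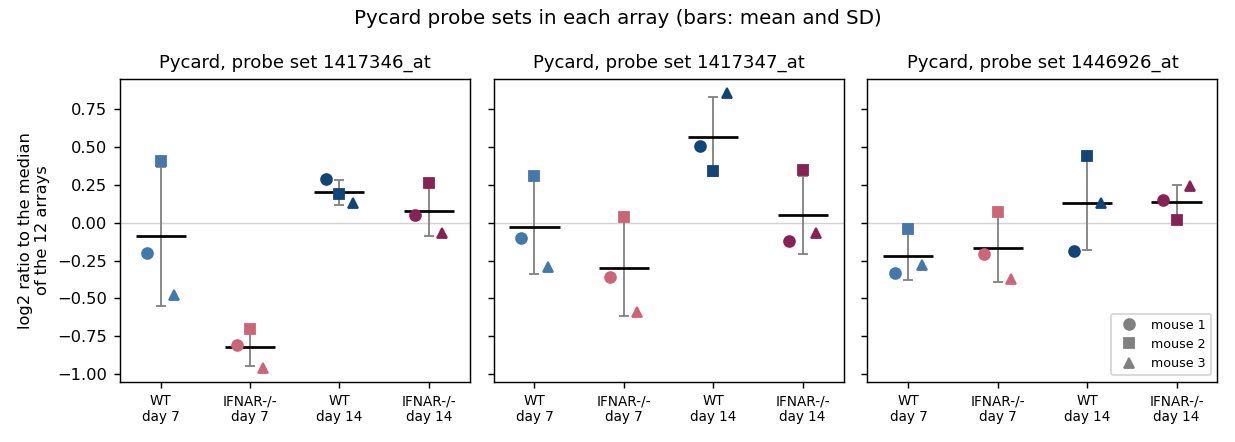
Log2 ratio of the 3 Pycard probe sets to their medians over the 12 arrays, by genotype and day; points are single mice, the bar is the mean and the whisker the SD of 3 mice. In probe set 1417346_at the 3 IFNAR-/- day 7 arrays lie between -0.96 and -0.70, below all other arrays, and in 1446926_at they overlap the wildtype arrays of day 7.

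Gsdmd codes for gasdermin D, the pore-former cut by both caspases. It had the narrowest range of the members over the arrays, 0.75, against a median of 0.77 over all genes. Wildtype arrays stood at -0.03, 0.45 and -0.13 at day 7 and -0.31, 0.01 and -0.05 at day 14, and IFNAR-/- arrays at -0.18, -0.20 and 0.04 and then 0.23, 0.33 and 0.08. Every IFNAR-/- array of day 14 was above every wildtype array of that day and every IFNAR-/- array of day 7.

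No difference of Gsdmd passed. It was -0.21 ± 0.16 (SE) between genotypes at day 7 and 0.33 ± 0.16 at day 14, with limma adjusted p of 0.702 and 0.261. Over time it was -0.21 ± 0.16 in wildtype and 0.32 ± 0.16 in IFNAR-/- cells, with limma adjusted p of 0.488 and 0.197. The genotype difference changed by 0.53 ± 0.22 (limma adjusted p = 0.228).

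Over time, none of the 6 members passed limma's test in either genotype. In wildtype cells 4 had an unadjusted p under 0.05 (Casp1, Nlrp3, Aim2 and Pycard), as did 22.1% of all genes. The test was passed by 7.98% of all genes. Casp1 and Nlrp3 did not overlap between the days, against 31.1% of all genes, and the members' median was -0.38 against 0.02. In IFNAR-/- cells 2 had an unadjusted p under 0.05 (Nlrp3 and Pycard), as did 28.6% of all genes, and 12.3% of all genes passed. Pycard and Gsdmd did not overlap, against 34.0% of all genes, and the median was 0.09 against 0.02. For the change of the genotype difference none passed and 2 had an unadjusted p under 0.05 (Casp1 and Gsdmd), as did 18.1% of all genes. Of all genes 2.48% passed, and the members' median was 0.47 against -0.01.

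Across the 12 arrays the members did not move as a block. Casp1 and Casp4 had a Pearson r of 0.825, Casp1 and Aim2 0.497, and Casp4 and Aim2 0.455. Nlrp3 ran against Pycard, with r = -0.766, and against Casp4, with r = -0.315. These are descriptions over 12 arrays in 4 groups, which share their group means. Among all other genes, those closest to Casp1 were Nmi and Zbp1 (r of 0.957 and 0.953), to Casp4 Setdb2 and Car9 (0.930 and 0.924), and to Nlrp3 Dst and Ereg (0.963 and 0.962). Those closest to Aim2 were Glrp1 and Apod (0.891 and 0.886), to Pycard Sfmbt2 and Psmb6 (0.960 and 0.958), and to Gsdmd Scarf1 and C1s1 (0.938 and 0.923).

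The spread within groups split the members. Casp4, Nlrp3 and Aim2 had residual SDs of 0.452, 0.532 and 0.389, above those of 93.8%, 96.0% and 90.9% of genes. Casp1, Pycard and Gsdmd had 0.195, 0.199 and 0.198, close to the median of 0.184. A difference of a given size is therefore less well resolved for Nlrp3 and Aim2 than for Casp1.

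A list of 58 other genes of the pathway, of which 45 were measured, placed the members in context. It was chosen with earlier results of these data known. At day 7, 2 rose and 5 fell without IFNAR, where 2.64% of all genes passed. The median of the 45 was 0.01 against 0.00 over all genes. In 3 of 7 measured transcription factors the RNA fell: Irf9, a subunit of the factor that type I interferon activates, by 0.98 ± 0.18 (SE), Irf8, a factor of macrophage and dendritic cell development, by 1.14 ± 0.25, and Irf4, a factor of dendritic cells and lymphocytes, by 1.63 ± 0.36, with limma adjusted p of 0.0149, 0.0378 and 0.0384. Among 11 inhibitors Trim30a, which restrains NLRP3, fell by 1.60 ± 0.16 (limma adjusted p = 0.000506). Of 7 upstream activators P2rx7, the ATP-gated channel that triggers NLRP3, fell by 0.87 ± 0.19 (limma adjusted p = 0.0384). The sensor family gene Nlrp10 rose by 0.96 ± 0.15 (limma adjusted p = 0.00721), and Serpinb1a, a protease inhibitor outside the naming rule, rose by 1.45 ± 0.33 (limma adjusted p = 0.0458).

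In single arrays Trim30a stood at 1.65, 1.55 and 1.27 in wildtype and at -0.05, -0.44 and 0.18 in IFNAR-/- cells at day 7. Nlrp10 stood at -0.16, -0.32 and -0.04 and at 0.73, 0.92 and 0.72. The genotypes were apart for both genes. Irf4, Irf8 and P2rx7 rested on small margins: of 22 alternative fits Irf4 passed in 8, P2rx7 in 10 and Irf8 in 11, while Irf9 passed in 19, Trim30a in 21 and Nlrp10 in 22. In a fit with either covariate 3 of the 45 passed. None of the 6 other caspases passed, nor did any of 3 gasdermin and membrane rupture genes.

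At day 14, 5 of the 45 rose and 2 fell, where 5.04% of all genes passed. The cytokines that caspase-1 acts on or that are released with them took up 3 of the 5: Il1b rose by 2.35 ± 0.21 (SE, limma adjusted p = 0.000904), Il1a by 2.72 ± 0.33 (limma adjusted p = 0.00279) and Il18 by 1.96 ± 0.40 (limma adjusted p = 0.0222). Il33, outside the naming rule, was the other of 4 measured cytokine and alarmin genes. It differed by -0.97 ± 0.69, with every IFNAR-/- array lower, and did not pass (limma adjusted p = 0.469). Tnfaip3, which codes for the NF-kB inhibitor A20, rose by 2.12 ± 0.35 (limma adjusted p = 0.0102), and Il1rn, the receptor antagonist of interleukin-1 and outside the naming rule, by 1.12 ± 0.26 (limma adjusted p = 0.0329). Naip5, a flagellin receptor that acts with NLRC4, fell by 1.14 ± 0.25 and Kcnk6, a potassium channel of the NLRP3 pathway, by 0.90 ± 0.20, with limma adjusted p of 0.0282 and 0.0285. The median of the 45 was 0.01 against 0.00 over all genes.

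Il1b stood at -2.08, -2.51 and -2.29 in wildtype and 0.30, -0.56 and 0.42 in IFNAR-/- cells at day 14. Its day 7 values were 0.32, 0.28 and 0.21 and then 0.02, -0.11 and -0.01. The low arrays of Il1b were thus the 3 of wildtype day 14, which were low for Nlrp3 too. IFNAR-/- day 14 mouse 2 was below mice 1 and 3 for Il1b and Nlrp3. It was as low as the wildtype day 14 arrays only for Nlrp3, at -1.47. Il18 stood at -2.50, -3.41 and -2.88 in wildtype and at 0.14, -1.37 and -1.67 in IFNAR-/- cells at day 14. Il1b and Il18 were apart between the genotypes on that day. At day 7 Il18 stood at 0.27, -0.16 and 0.58 in wildtype and at 1.46, 1.54 and 1.74 in IFNAR-/- cells, also apart. That difference was 1.35 ± 0.40 (SE, limma adjusted p = 0.118). The genotype difference of Il18 changed between the days by 0.61 ± 0.57 (limma adjusted p = 0.636). Il1b and Il1a passed in 22 of 22 alternative fits, Tnfaip3 in 21, Il18 in 17, Naip5 in 16 and Kcnk6 in 14. Fitted with the 5′ over 3′ ratio as a covariate, 2 of the 45 passed at day 14, Il1b and Il1a.

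**Figure D4:**
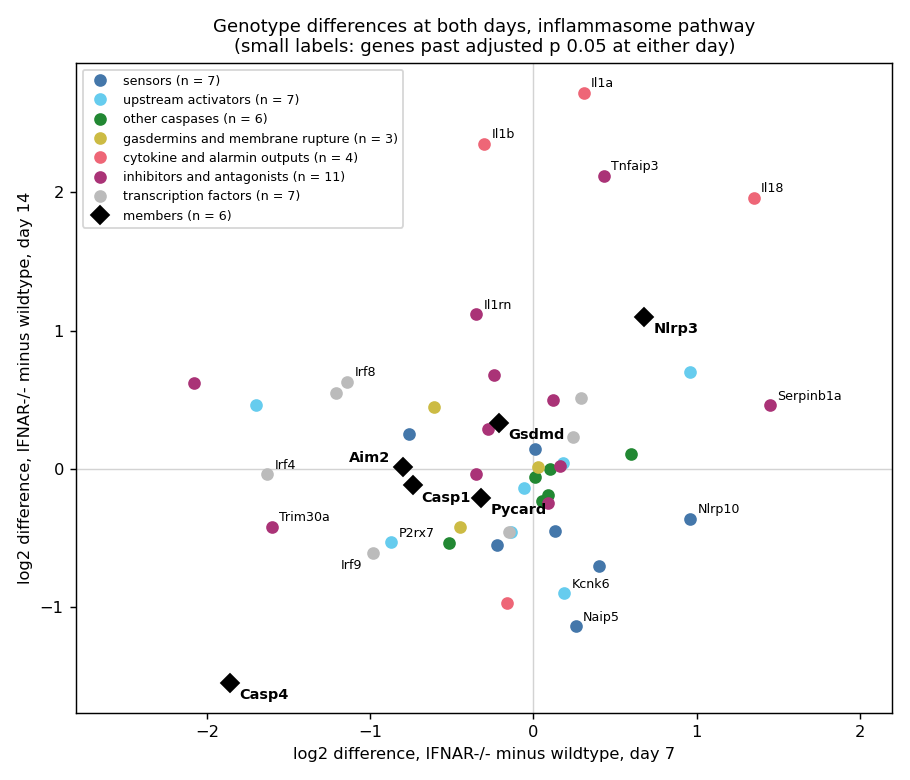
Genotype difference (log2, IFNAR-/- minus wildtype) of the 45 measured pathway genes and the 6 measured members at day 7 (horizontal axis) and day 14 (vertical axis); small labels name pathway genes with an adjusted p under 0.05 at either day. Casp4 lies low on both axes (-1.86 and -1.55), whereas Il1b lies at -0.30 and 2.35.

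From day 7 to day 14 in wildtype cells 3 of the 45 rose and 10 fell, where 7.98% of all genes passed. The falls with the lowest p were Il1b (-2.57 ± 0.21 SE, limma adjusted p = 0.000246), Trim30a (-1.28 ± 0.16, 0.00128), Il18 (-3.16 ± 0.40, 0.00162), Il1a (-2.49 ± 0.33, 0.00211) and Tnfaip3 (-2.23 ± 0.35, 0.00460). Casp6, an executioner caspase, rose by 0.98 ± 0.17 (limma adjusted p = 0.00809). Il33, outside the naming rule, rose by 3.11 ± 0.69 (limma adjusted p = 0.0205). In IFNAR-/- cells 4 rose and 8 fell, where 12.3% of all genes passed. Casp6 rose by 0.96 ± 0.17 (limma adjusted p = 0.00586) and Irf4 by 1.91 ± 0.36 (0.00699), while Casp8, the initiator caspase of death receptors, fell by 0.77 ± 0.10 (0.00157), Serpinb1a by 2.36 ± 0.33 (0.00186), Nlrp10 by 0.99 ± 0.15 (0.00242) and Il18 by 2.55 ± 0.40 (0.00303). Casp8 and Serpinb1a passed in wildtype cells too, at -0.49 ± 0.10 and -1.37 ± 0.33 (limma adjusted p of 0.0168 and 0.03). The median of the 45 was -0.15 in wildtype and -0.08 in IFNAR-/- cells, against 0.02 over all genes in both. Fitted with the 5′ over 3′ ratio, 4 passed in wildtype cells, all lower at day 14, and 10 in IFNAR-/- cells. With the poly-A spike-in signal 7 passed in wildtype cells, 1 higher and 6 lower at day 14, and 12 in IFNAR-/- cells.

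Cell type markers moved with these changes over time. Alveolar macrophage markers fell in 5 of 9 cases in wildtype (median -1.73) and in 4 of 9 in IFNAR-/- cells (median -1.56). T cell markers rose in 6 of 9 cases in IFNAR-/- cells (median 1.07) and dendritic cell markers in 5 of 9 (median 0.73). At day 14, 4 of 9 T cell markers rose without IFNAR (median 0.83). Over all genes 7.98% passed over time in wildtype, 12.3% in IFNAR-/- cells and 5.04% between genotypes at day 14. T cell list medians at day 14 were -0.12, -0.32 and -0.11 in wildtype and 0.82, 0.70 and 0.20 in IFNAR-/- mice. Their part in the values of the inflammasome genes was not tested.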

How the data were processed

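RNA of CD11c+ lung cells was measured on 12 arrays, 1 per mouse. The submitters' processing notes name RMA, a routine that normalises Affymetrix arrays and combines the probes of a set, with no version. The deposited values are linear ratios, the authors' value divided by about the median of that probe set on all 12 arrays; the division was read from the values, not stated, and removes levels and signal over background. Their log2 was analysed without another normalization or a filter, since neither brightness nor detection is known. Precision is limited by the number of arrays.

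Of 45101 probe sets, 34945 carried 1 gene symbol, and probe sets of the same symbol were averaged to 18193 genes. A model with 1 mean per group was fitted with limma 3.58.1 in R 4.3.3, with 8 residual and 3.21 prior degrees of freedom. Tests were two-sided with Benjamini-Hochberg adjustment over all genes at 0.05, and the script was tested on simulated data. The comparisons share arrays: those at the same day or in the same genotype, and all share the estimate of the spread. Named were all members, in each comparison up to 6 called pathway genes with the lowest p, and for each member the 2 genes with the highest Pearson r. Members, pathway genes and marker lists were chosen with earlier results of these data known. The fits of the pathway genes under alternative settings were added after the data were seen. The labels say that cells came from individual mice.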

Additional observations from a re-analysis of the deposited data

Results flagged for a closer look

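None of the 6 measured members had a genotype difference that passed limma's test for a change between day 7 and day 14. Among the 45 measured pathway genes 5 did, in limma's test of the change itself, as did 2.48% of all genes. Il1b changed by 2.66 ± 0.30 (SE, limma adjusted p = 0.00523), from -0.30 at day 7 to 2.35 at day 14. Il1a changed by 2.41 ± 0.47 (limma adjusted p = 0.0280), Irf8 by 1.77 ± 0.36 (limma adjusted p = 0.0293) and Trim30a by 1.18 ± 0.22 (limma adjusted p = 0.0235). These 3 passed in 11, 13 and 14 of 21 alternative fits, and Il1b in 20. Nlrp10 changed the other way, by -1.32 ± 0.21 (limma adjusted p = 0.0134), from 0.96 to -0.36, and passed in 20. Fitted with the 5′ over 3′ ratio as a covariate, 0 of the 45 passed, although over all 21 fits Il1b stayed between 2.39 and 3.00 and Nlrp10 between -1.55 and -1.22.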

How the results depend on the processing

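Fitting the mouse number as a replicate block left 1 member called at day 7 (Casp4; Casp1 at -0.74, limma adjusted p = 0.0555), 1 over time in wildtype (Aim2, 0.0457) and 1 in IFNAR-/- cells (Pycard, 0.0302); same-numbered mice are different animals, and their deviations correlated between -0.397 and 0.232. Members called at day 7 numbered 4 with array weights, 0 with only the arrays compared, 1 with the 5′ over 3′ covariate, 0 with the poly-A covariate and 0 to 3 with 1 array left out. At day 14 they numbered 2 with array weights, 0 with the 5′ over 3′ covariate and 0 to 1 with 1 array left out; without both arrays that stand apart 1 was called, Nlrp3 in place of Casp4. In wildtype over time they numbered 2 with array weights, 1 with only the arrays compared, 1 without both arrays and 0 to 1 with 1 left out. In IFNAR-/- cells over time Pycard made 1 with the most variable probe set, the trended and robust prior, array weights or single probe sets, and 0 to 1 with 1 array left out. For the change of the genotype difference they numbered 1 with array weights (Aim2), 1 without both arrays (Nlrp3) and 0 to 1 with 1 left out; a fit of only the arrays compared needs all 12 and was not run. The cause of these changes was not tested. Signs changed only in differences that never passed. Aim2 at day 14 was -0.25 with the 5′ over 3′ and -0.22 with the poly-A covariate, and -0.25 to 0.38 with 1 array left out. Casp4 over time ran from -0.69 to 0.03 in wildtype and from -0.25 to 0.20 in IFNAR-/- cells, where quantile normalization gave 0.04 and leaving out both arrays 0.20; Aim2 there was 0.01 with quantile normalization and ran from -0.20 to 0.07. The change of the genotype difference was -0.03 and -0.02 for Casp4 with the covariates (-0.06 to 0.66 with 1 array left out). For Pycard it was -0.06 without both arrays (-0.06 to 0.23 with 1 left out), -0.24 in 1417347_at and -0.04 in 1446926_at, whose genotype differences were 0.05 at day 7 and 0.01 at day 14. Pathway calls with 1 array left out numbered 2 to 7 at day 7, 3 to 8 at day 14, 7 to 16 in wildtype and 8 to 15 in IFNAR-/- cells over time, and 2 to 8 for the change. Calls over all genes, in that order, ran from 277 to 1882, 37 to 1899, 154 to 2688, 1136 to 4576 and 3 to 1765 under the other settings, and from 210 to 703, 384 to 913, 716 to 2169, 1094 to 2520 and 138 to 485 with 1 left out, against 481, 917, 1451, 2244 and 451.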
